A study of Bos indicus x Bos taurus with 45 samples.

Results

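The miR-379 to miR-410 cluster is a run of microRNAs (miRNAs, short RNAs that repress messenger RNAs) in the imprinted DLK1-DIO3 domain. Its members were taken here by name from small RNA sequencing of bovine fetal kidney, liver, skeletal muscle and tongue. 68 of the 603 distinct miRNAs in the deposited count tables belonged to it: 56 of 436 in kidney, 67 of 563 in liver, 64 of 460 in tongue and 64 of 439 in skeletal muscle. 54 members were listed in all 4 tissues. Both arms of a hairpin count as separate members, and 66 of the members were assigned to a single precursor each, from 43 precursors in all. The prefix bta is left out of all names, and a name with no arm suffix is given as the tables give it.

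The fetuses were Bos indicus x Bos taurus crosses at about day 105 of gestation. Controls were conceived by artificial insemination. LOS fetuses came from assisted reproduction (ART) and had large offspring syndrome, an overgrowth condition, and ART fetuses came from assisted reproduction with a normal phenotype. Kidney and skeletal muscle had 4 control and 4 LOS libraries each, liver had 5 control, 4 LOS and 4 ART libraries, and tongue had 9 control and 7 LOS libraries, of which 9 were female and 7 male. Sex was given for tongue alone. Dams, sires and processing days were not given, and the p-values cover only variation among the fetuses named in the labels.

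In mammals studied so far, the miRNAs of this domain are expressed from the maternally inherited chromosome, together with the noncoding RNA MEG3 and a large group of small nucleolar RNAs, while DLK1, RTL1 and DIO3 are expressed from the paternally inherited one. The cluster is cut from a long shared transcript, so its members start from the same promoter, although each hairpin is processed on its own and each mature strand has its own stability. Many of the hairpins resemble one another: those of miR-379, miR-380 and miR-411 belong to the mir-379 family, and those of miR-154, miR-381 and miR-410 to the mir-154 family. The cluster is best known from brain, embryo and placenta. In the RefSeq gene table of the cattle assembly UOA_Brahman_1, 47 genes lay between RTL1 and DIO3, of which 34 were small nucleolar RNA genes and 6 long noncoding RNA genes. No member was matched to a gene there, and coordinates are not given because that assembly is not the one the authors used.

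Tongue libraries held 9357833 to 13822348 listed reads, kidney libraries 6132982 to 9170756, muscle libraries 4744968 to 6456252 and liver libraries 3379816 to 4976770, and no listed count was 0. The lowest count of any member was 15. The tissue labels were checked against marker miRNAs. The summed skeletal muscle markers lay between 17691 and 21036 CPM (reads of a miRNA scaled to a common library total) in muscle and between 15984 and 24831 in tongue, against at most 209 in kidney and liver. All 5 of these markers were listed in muscle and tongue but only 3 in liver and 1 in kidney, so the sums cover unlike sets. The summed hepatocyte markers lay between 75764 and 101930 CPM in liver and between 20461 and 25073 in kidney, where miR-192 and miR-194 of that list are also known from epithelium. In tongue, with 2 of these 3 markers listed, control 9 stood at 7254.5 CPM and the other libraries at 1506 to 2415.4. The 7 kidney epithelium markers, miR-192 and miR-194 among them, summed to 84770 to 108080 CPM in kidney and 89361 to 109470 in liver. They did not separate kidney from liver, while tongue stood at 23071 to 35297. Library LOS 3 had the lowest share of reads in the cluster in each tissue, by a small margin in liver, and in tongue control 1 was about as low for many members.

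The cluster made up a large part of the listed miRNAs in 3 of the 4 tissues. In controls it took 5.18% ± 0.119 of listed reads in kidney (SD, n = 4), 16.7% ± 0.247 in liver (n = 5), 22.5% ± 1.41 in tongue (n = 9) and 26.9% ± 0.561 in skeletal muscle (n = 4). The kidney libraries lay between 4.03% and 6.25% over both groups, below every library of the other tissues. Tissue was confounded with the deposited table, and cutadapt was named for tongue alone in the submitters' processing notes. Differences between tissues therefore cannot be told apart from differences in library making or processing, and in bulk tissue fewer cells of a type cannot be told apart from less RNA per cell.

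**Figure D1:**
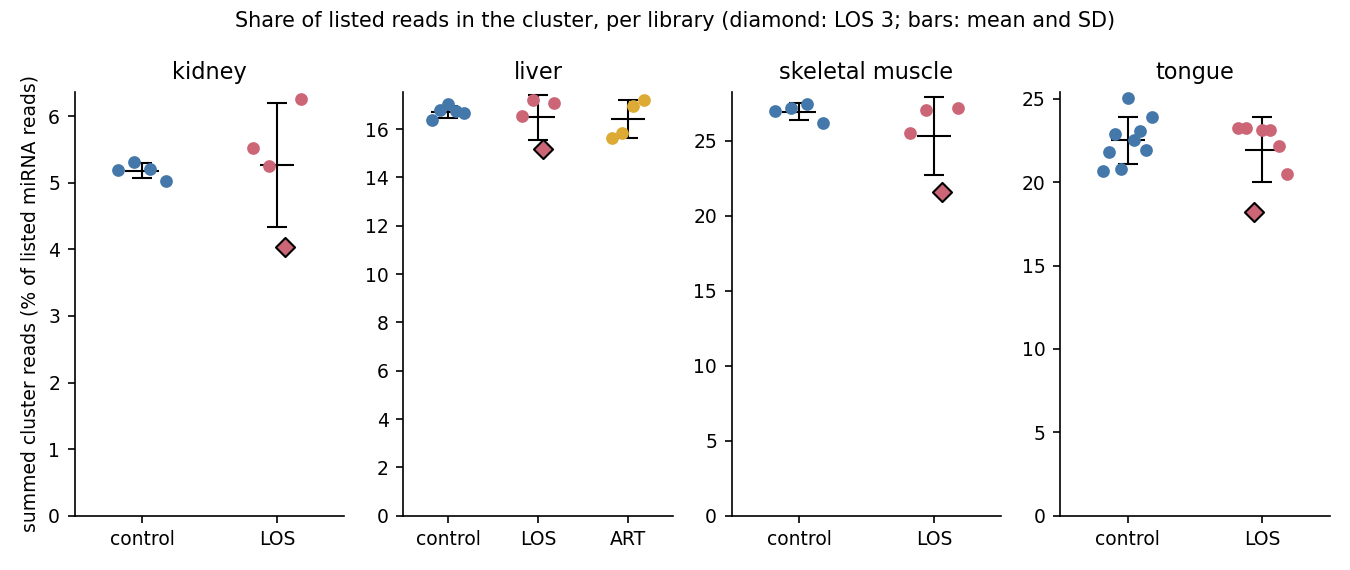
Reads of all cluster members as a percentage of listed miRNA reads, 1 point per library, in 4 tissues with separate vertical axes that start at 0. Bars give the group mean and SD, and the diamonds mark LOS 3, which has the lowest share in each tissue (4.03% in kidney, 15.2% in liver, 18.2% in tongue and 21.6% in skeletal muscle).

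A few members held most of these reads. Levels below are CPM scaled by the edgeR TMM factors within each tissue's table. In controls the 4 most abundant members took 83.3% of the cluster in kidney, 75.4% in liver, 84.8% in tongue and 89.2% in skeletal muscle. miR-411a, of the mir-379 family, led in kidney with 61.0% of the cluster, in liver with 53.9% and in tongue with 43.6%. In skeletal muscle miR-381, of the mir-154 family, led with 39.6%. The median member was far lower, at 69.9 CPM in kidney, 226 in liver, 154 in tongue and 125 in skeletal muscle. Only 6 of the members in kidney exceeded 1000 CPM, against 15 in liver, 14 in tongue and 13 in skeletal muscle.

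miR-411a was the member with the highest mean over the 4 tissues. Its levels over all libraries ran from 65957 to 109200 CPM in tongue (median 96849), from 80258 to 94426 in liver (median 87973), from 73000 to 99733 in skeletal muscle (median 85431) and from 23304 to 37721 in kidney (median 32102). The liver, muscle and tongue ranges overlapped, and only kidney stood clear of the others.

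miR-381 differed far more between tissues. It ran from 1452 to 2267 CPM in kidney (median 1881), from 7712 to 9865 in liver (median 9275), from 37425 to 67716 in tongue (median 52158) and from 83677 to 109280 in skeletal muscle (median 103710). No range of 1 tissue touched that of another, in the order kidney, liver, tongue and skeletal muscle. The ratio of miR-381 to miR-411a within a library does not depend on any scaling between libraries. It averaged 0.0565 ± 0.00458 in control kidney (SD, n = 4), 0.102 ± 0.00649 in liver (n = 5), 0.534 ± 0.0937 in tongue (n = 9) and 1.20 ± 0.0718 in skeletal muscle (n = 4). Over all libraries the ratio stayed between 0.0510 and 0.0680 in kidney, 0.0895 and 0.116 in liver, 0.344 and 0.703 in tongue and 1.03 and 1.42 in skeletal muscle, so these 2 members of 1 cluster changed their proportion by tissue without overlap.

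**Figure D2:**
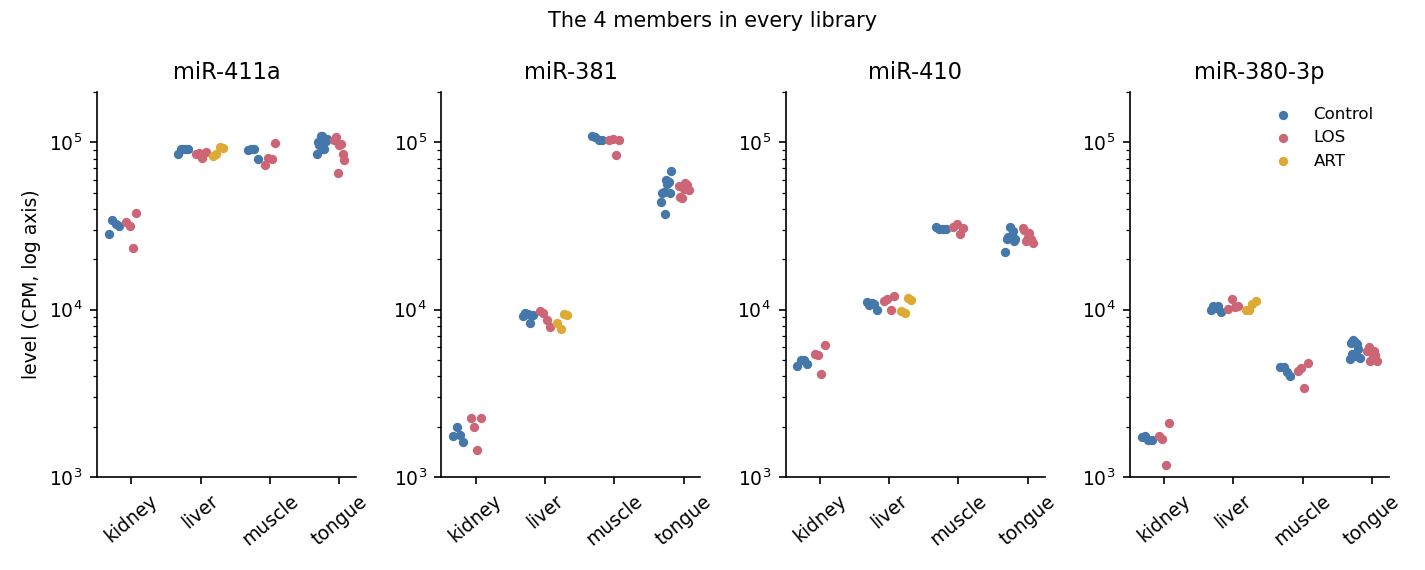
Level of miR-411a, miR-381, miR-410 and miR-380-3p in every library (CPM, log axis, 1 point per library), by tissue and coloured by group. miR-381 spans from 1452 CPM in a kidney library to 109280 in a muscle library, while miR-411a has overlapping ranges in liver, skeletal muscle and tongue.

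The next members split between these patterns. miR-410, which closes the cluster by name, averaged 4840 CPM in control kidney, 10710 in liver, 27054 in tongue and 30594 in skeletal muscle. miR-409a-3p averaged 4956 CPM in kidney. Scaled within each table, it was close to level in the others, with 14958 in liver, 13879 in tongue and 13674 in skeletal muscle. In the fit across tissues described below it was lower than in skeletal muscle in liver (log2 difference -0.58 ± 0.0669, adjusted p 1.39e-06 in edgeR) and in tongue (-0.48 ± 0.0669, adjusted p 2.86e-05). The sign of the liver difference depended on the scaling. miR-380-3p was instead highest in liver, at 10197 CPM against 1704 in kidney, 5815 in tongue and 4335 in skeletal muscle. Of the rest of the 10 most abundant, miR-154c averaged 1444 CPM in kidney, 4202 in liver, 7514 in tongue and 5608 in skeletal muscle. miR-369-3p and miR-487b averaged 697 and 375 CPM in kidney and 3309 and 2341 in liver. miR-299-3p and miR-411a-3p averaged 247 and 301 CPM in kidney and 1869 and 1412 in skeletal muscle. All 10 had their lowest control mean in kidney.

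Control tissues were compared to ask which members differ between organs, with controls 1 to 4 of each tissue, the fetus number as a block and the 374 miRNAs listed everywhere. The tongue libraries among controls 1 to 4 were all female, while the tongue levels above averaged controls of both sexes. The scaling factors were set across tissues here, so a difference need not match the ratio of the levels above, which were scaled within each table. In edgeR's quasi-likelihood test with Benjamini-Hochberg adjustment over the 374, 0 of 54 members were higher in kidney than in skeletal muscle and 50 were lower at an adjusted p under 0.05, where 77.3% of all tested miRNAs were called, 35.8% higher and 41.4% lower. Against kidney, liver had 49 members higher and 1 lower (86.6% of all tested called, 48.1% higher and 38.5% lower), and tongue had 47 higher and 2 lower (80.2% called, 44.1% higher and 36.1% lower). The members' median log2 difference was 1.46 for liver minus kidney, 1.23 for tongue minus kidney and -1.25 for kidney minus skeletal muscle, beside medians over all tested of 0.245, 0.0842 and -0.0100. Kidney was the lowest tissue for 47 of the 54 members and the highest for 0, while it was lowest for 17.5% of the 320 other miRNAs. The low kidney level was thus shared by most members. With each scaling tried, at most 2 called members were higher in kidney than in the tissue it was set against.

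**Figure D3:**
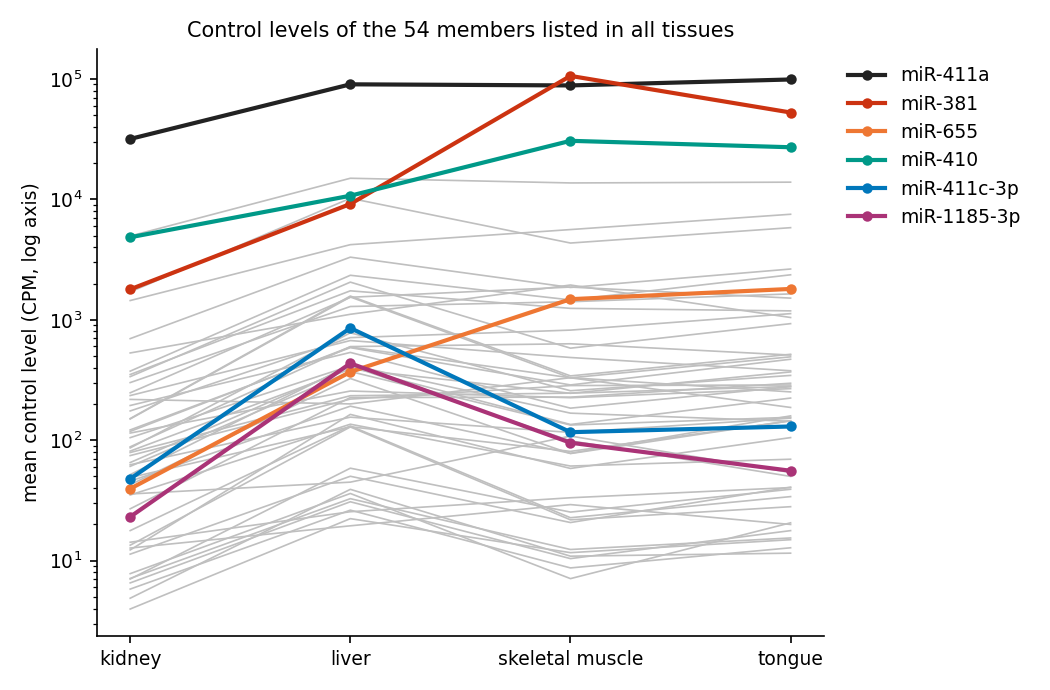
Mean control level of the 54 members listed in all tissues (CPM, log axis), 1 line per member, with 6 members coloured. Most lines start lowest in kidney. miR-381 and miR-655 climb from liver to skeletal muscle, whereas miR-411c-3p and miR-1185-3p peak in liver.

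miR-381 and miR-655 showed the largest differences between kidney and muscle. miR-381 was lower in kidney than in skeletal muscle by -5.82 ± 0.101 on the log2 scale (SE, 4 libraries each), a 56.6-fold difference in edgeR's quasi-likelihood test (adjusted p 7.86e-15). miR-655, of much lower abundance, averaged 39.5 CPM in control kidney, 369 in liver, 1803 in tongue and 1482 in skeletal muscle, and differed by -5.14 ± 0.119 between kidney and muscle (adjusted p 1.20e-13 in edgeR). miR-299 followed at -3.01 ± 0.0905. Between liver and skeletal muscle the largest differences below 0 were those of miR-381 (-4.27 ± 0.0938, 19.3-fold), miR-655 (-2.74 ± 0.106) and miR-410 (-2.22 ± 0.0675). Tongue, itself largely skeletal muscle, also lay below skeletal muscle in miR-381 (-1.60 ± 0.0841, 3.03-fold), whereas miR-655, with the higher within-table level in tongue, differed by -0.16 ± 0.0985 there (adjusted p 0.163 in edgeR).

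Another set of members peaked in liver. miR-411c-3p averaged 853 CPM in control liver, 47.8 in kidney, 130 in tongue and 117 in skeletal muscle, and was higher in liver than in kidney by 3.37 ± 0.0974 and than in skeletal muscle by 2.15 ± 0.0923 on the log2 scale. miR-1185-3p averaged 435 CPM in control liver, 23.1 in kidney, 55.8 in tongue and 95.3 in skeletal muscle, with a liver minus kidney difference of 3.47 ± 0.174. miR-134 and miR-134-3p, the 2 arms of a precursor known from work on dendritic spines of neurons, were higher in liver than in skeletal muscle by 1.79 ± 0.124 and 1.81 ± 0.123. miR-154a-3p was higher in liver than in kidney by 2.95 ± 0.111. In tongue against liver, miR-1185-3p (-3.01 ± 0.167), miR-323b-3p (-2.87 ± 0.126) and miR-494 (-2.79 ± 0.153) were the members furthest below 0, and miR-381 (2.67 ± 0.0873), miR-655 (2.57 ± 0.105) and miR-410 (1.59 ± 0.0661) the furthest above. Each difference in this paragraph passed edgeR's quasi-likelihood test, with the highest adjusted p at 6.21e-09.

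Between liver and skeletal muscle 27 members were called higher and 20 lower in liver (85.3% of all tested called, 45.5% higher and 39.8% lower). Between tongue and skeletal muscle 14 were higher and 20 lower in tongue (64.7% of all tested, 33.7% higher and 31% lower). Between tongue and liver 19 were higher and 24 lower in tongue (85.3% of all tested, 39.3% higher and 46% lower). The balance of these splits depended on the scaling. With library totals only, an alternative chosen after seeing the data, liver against skeletal muscle gave 36 higher and 11 lower, tongue against skeletal muscle 27 and 13, and tongue against liver 9 and 33. With factors from miRNAs outside the domain they were 25 and 22, 23 and 14, and 28 and 14. Library totals moved the median of all tested miRNAs from 0.0976 to 0.841 for liver minus skeletal muscle. Leaving out control 2 changed the split of tongue against skeletal muscle to 5 and 20. miR-411a itself was lower in liver than in skeletal muscle by -0.70 ± 0.0802 with the TMM factors and differed by 0.04 with library totals, so its direction between these tissues was not fixed. In tongue against skeletal muscle miR-668-3p (1.19 ± 0.170), miR-1185 (0.68 ± 0.0891) and miR-329b-3p (0.56 ± 0.112) led above 0, and miR-541 (-1.76 ± 0.208), miR-381 and miR-323b-3p (-1.53 ± 0.122) below it.

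miR-412-5p ran against most of the cluster between liver and kidney with the TMM factors. For kidney minus skeletal muscle it went with the cluster (-0.51 ± 0.15, adjusted p 0.00678 in edgeR). It averaged 218 CPM in control kidney, 200.1 in liver, 252 in tongue and 330 in skeletal muscle, and was the 1 member called lower in liver than in kidney (-0.84 ± 0.151, adjusted p 0.000127 in edgeR). With library totals only this difference was -0.00396 and the call was lost. For tongue minus kidney the levels scaled within each table and the fit ran in opposite directions: the levels above were higher in tongue, while the fit over controls 1 to 4 with factors across tissues had means of 207.8 CPM in tongue and 277.5 in kidney (-0.42 ± 0.149, adjusted p 0.0181 in edgeR). That call was lost without control 1, 3 or 4 (adjusted p up to 0.0900), and the difference was 0.05 with factors from outside the domain and 0.02 with library totals, so no direction between these tissues is given. The other member called below 0 for tongue minus kidney was miR-323b-3p, at -1.68 ± 0.122.

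14 members were missing from 1 or more tables. miR-154a, miR-154b-3p, miR-154c-5p, miR-377-5p, miR-381-5p, miR-411b-3p, miR-539 and miR-543-5p were listed in the 3 tissues other than kidney, where control means ran from 6.21 CPM for miR-154a in skeletal muscle to 70.0 CPM for miR-381-5p in tongue. miR-329a-5p was listed in all but tongue (4.56 to 12.4 CPM) and miR-544a-5p in all but skeletal muscle (4.93 to 36.8 CPM). miR-495-5p was listed in skeletal muscle and tongue alone, at 4.77 and 5.81 CPM. miR-376d-5p, miR-494-5p and miR-544a were listed in liver alone, at 8.29, 18.6 and 7.33 CPM. A member that is not listed in a tissue has no value there, and the sources used here do not state by which rule a table lists a miRNA.

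The hairpins differed in which arm was kept. Of the 14 precursors with both arms in every table, 4 had over 90% of their reads on 1 arm on average: mir-376a (98.9%, on miR-376a-5p), mir-411a (98.6%, on miR-411a), mir-487a (95.9%, on miR-487a) and mir-409a (91.0%, on miR-409a-3p). The most even were mir-134 at 53.2%, mir-1185 at 54.1% and mir-379 at 62.1%. In mir-376a, a hairpin known for editing of its RNA, the arm named miR-376a itself was the minor one, at a control mean of 3.97 CPM in kidney.

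The more abundant arm changed with the tissue in mir-379 and mir-1185. In control kidney miR-379 held 56.1% ± 2.77 of the reads of its precursor (SD, n = 4), whereas miR-379-3p held 74.6% ± 2.39 in liver (n = 5), 65.0% ± 2.61 in tongue (n = 9) and 64.9% ± 2.49 in skeletal muscle (n = 4). Over all libraries, LOS and ART included, miR-379 held 53.4% to 59.9% in kidney and miR-379-3p at least 60.6% elsewhere, so the change of the leading arm was seen in every library. miR-1185 held 66.4% ± 3.11 in control kidney and 74.3% ± 6.57 in tongue, and miR-1185-3p held 69.4% ± 0.727 in liver and 54.8% ± 2.33 in skeletal muscle. These too kept to 1 side of an even split in every library, the closest being a muscle library with 52.0% on miR-1185-3p. In mir-134 the share of miR-134 crossed an even split within tissues, from 47.6% to 53.1% in liver and 44.3% to 58.4% in skeletal muscle. In mir-411c the 5p arm led everywhere, with 87.6% ± 0.758 in control kidney, 70.7% ± 1.54 in liver, 87.7% ± 1.64 in tongue and 83.3% ± 0.919 in skeletal muscle. These shares come from 2 counts of the same library, so scaling between libraries does not enter them.

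LOS and control fetuses were compared in each tissue to ask whether the cluster differs in the overgrowth condition. The share of listed reads in the cluster was 5.27% ± 0.925 in LOS kidney (SD, n = 4), 16.5% ± 0.934 in LOS liver (n = 4), 25.3% ± 2.62 in LOS skeletal muscle (n = 4) and 21.95% ± 1.93 in LOS tongue (n = 7). Each differed from its control mean above by less than the SD of the LOS libraries. ART liver stood at 16.4% ± 0.780 (n = 4), also within its SD of the control mean. An SD of libraries does not measure the error of a mean, and a difference in the summed share was not tested. With LOS 3 included, the LOS mean in skeletal muscle lay below the lowest control library there (26.2%). The LOS libraries had a larger SD than the controls in all 4 tissues, and without LOS 3 in kidney, liver and skeletal muscle but not in tongue (1.09 against 1.41).

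By member, edgeR's quasi-likelihood test with Benjamini-Hochberg adjustment called 0 members between LOS and control in any tissue. In kidney 1 of 56 members had an unadjusted p under 0.05 (7.57% of all 436 tested), with a median log2 difference of 0.0188 over members beside 0.00644 over all. In liver it was 6 of 67 (14% of 563), with medians of 0.0132 and 0.0132, and there 1.24% of all tested miRNAs were called. In skeletal muscle it was 4 of 64 (13.2% of 439), with medians of -0.0358 and -0.0125, and in tongue 3 of 64 (5.43% of 460), with medians of -0.0064 and 0.0103. DESeq2 called 0 members in kidney (0.688% of all miRNAs with an adjusted p), 3 of 67 in liver (3.55%), 0 in tongue (0%) and 1 in skeletal muscle (5.47% of the 311 with an adjusted p). Members whose LOS and control libraries did not overlap numbered 0 in kidney (4.36% of all tested), 4 of 67 in liver (4.44%), 0 in tongue (0%) and 4 of 64 in skeletal muscle (8.88%). The members' share thus lay slightly above that of all miRNAs in liver, below it in kidney and skeletal muscle, and at the same 0% in tongue.

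**Figure D4:**
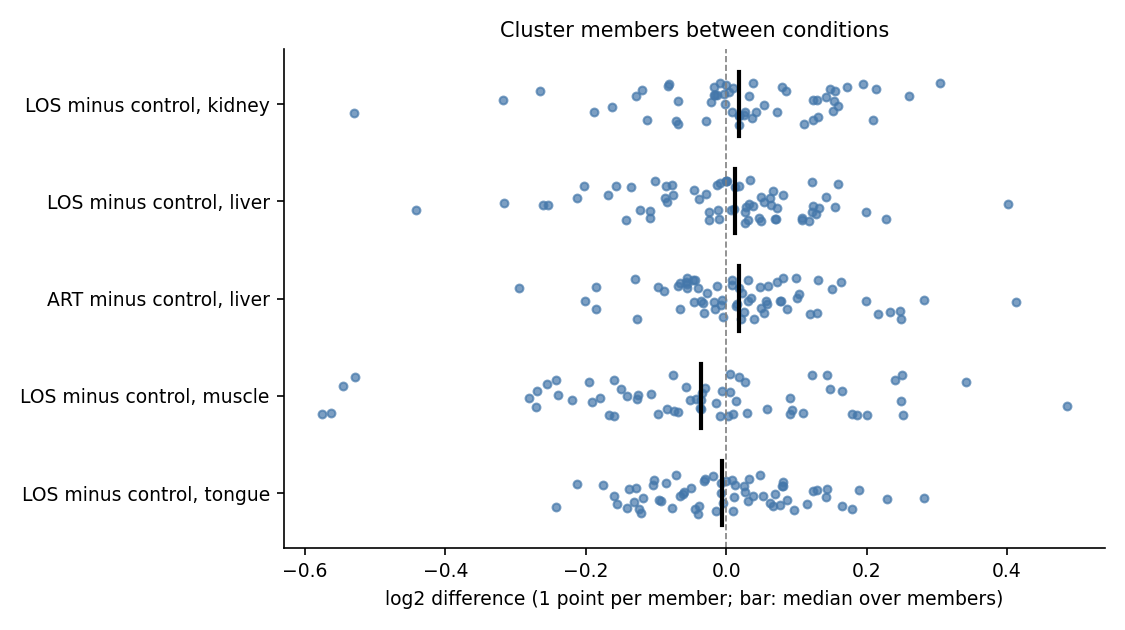
Log2 differences of the cluster members between conditions, 1 point per member, with the median over members as a bar. The medians lie at 0.0188 in kidney, 0.0132 in liver (LOS), 0.0186 in liver (ART), -0.0064 in tongue and -0.0358 in skeletal muscle, and 0 of the members passed the edgeR test.

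In liver the 3 members called by DESeq2 separated LOS from control. miR-541 stood at 39.2, 44.3, 44.6, 46.4 and 49.8 CPM in the 5 controls and at 50.4, 54.3, 61.1 and 71.1 CPM in the 4 LOS libraries. Every LOS library lay above every control, with a log2 difference of 0.40 ± 0.105 (SE; adjusted p 0.0986 in edgeR, 0.0399 in DESeq2), which was 0.28 without LOS 4. miR-376e stood at 312 to 354 CPM in controls (median 321) and at 272, 278, 289 and 293 CPM in LOS, with a difference of -0.20 ± 0.0538 (adjusted p 0.106 in edgeR, 0.0164 in DESeq2). miR-485-3p, from a precursor known for work on synapses, stood at 380.2, 404, 412, 448 and 460 CPM in controls and at 314, 350.2, 361 and 379 CPM in LOS, with a difference of -0.26 ± 0.0754 (adjusted p 0.131 in edgeR, 0.0399 in DESeq2). For both of these every LOS library lay below every control. The fourth member with no overlap was miR-376d, at -0.21 ± 0.0960 (adjusted p 0.352 in edgeR). Beside these differences, the summed hepatocyte markers ran from 75764 to 88128 CPM in LOS and from 81779 to 95126 in control, and the mesenchymal markers from 74939 to 88168 and from 59220 to 77664, and their part was not tested.

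miR-485-3p was also low in liver of ART fetuses of normal phenotype. Its ART libraries stood at 327, 333, 335 and 378 CPM, all below the lowest control, with a log2 difference of -0.29 ± 0.0755 from control (adjusted p 0.145 in edgeR, 0.0310 in DESeq2). LOS and ART were set against the same 5 controls, so the 2 differences share them. Directly, LOS minus ART differed by 0.03 ± 0.0792 for miR-485-3p (adjusted p 0.868 in edgeR). In kidney it stood at 47.3, 48.9, 51.9 and 59.1 CPM in controls and 36.3, 41.0, 41.0 and 48.0 in LOS, a difference of -0.32 ± 0.117 that did not pass (adjusted p 0.456 in edgeR), with 1 LOS library inside the control range, and it was -0.26 without LOS 3. In skeletal muscle its difference was 0.25 ± 0.125 and in tongue 0.01 ± 0.0742, neither passing (adjusted p 0.402 and 0.987 in edgeR). The other arm, miR-485, differed by -0.08 ± 0.08 in liver.

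In ART against control liver as a whole, edgeR called 0 of 67 and 0 of all 563 miRNAs, and 3 members had an unadjusted p under 0.05 (8.17% of all tested). DESeq2 called 1 member, miR-485-3p, and 1.07% of all 563. miR-758, known for repressing the cholesterol transporter ABCA1, differed by 0.22 ± 0.0664 (adjusted p 0.355 in edgeR), and miR-411b-3p by 0.28 ± 0.0933 (adjusted p 0.402). 1 member had no overlap between the groups, again miR-485-3p, where 2.84% of all tested miRNAs had none. The median over members was 0.0186 and over all tested 0.00336.

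LOS and ART liver were compared among fetuses of assisted reproduction. edgeR called 0 of 67 members, where 2.66% of all 563 were called, and 10 members had an unadjusted p under 0.05 (15.5% of all tested). miR-379-3p stood at 1391, 1435, 1436 and 1522 CPM in LOS and at 1606, 1610.3, 1642 and 1692 in ART, so that every LOS library lay below every ART library. Its difference was -0.18 ± 0.0521 (adjusted p 0.101 in edgeR, 0.0329 in DESeq2, which called no other member and 4.8% of all 563), and its control libraries, from 1467 to 1698 CPM, overlapped both. 7 members had no overlap, all lower in LOS, where 8.53% of all tested miRNAs had none: miR-379-3p, miR-411c-5p, miR-411b-3p, miR-376e, miR-377, miR-377-5p and miR-376d-5p. The 3 hepatocyte markers, all listed, summed to 75764 to 88128 CPM in LOS, 91601 to 101930 in ART and 81779 to 95126 in control liver, so LOS and ART did not overlap. The 7 mesenchymal markers summed to 74939 to 88168 CPM in LOS, 67213 to 78955 in ART and 59220 to 77664 in control. The part of these markers in the liver differences was not tested. miR-411c-5p differed by -0.17 ± 0.0544 (adjusted p 0.139 in edgeR). miR-541 and miR-412-5p differed by 0.30 ± 0.111 and 0.35 ± 0.143 (adjusted p 0.212 and 0.250 in edgeR).

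In skeletal muscle the lowest p was that of miR-299. It stood at 213, 221, 236 and 241 CPM in controls and at 120, 128.1, 179 and 198 CPM in LOS, with no overlap and a difference of -0.55 ± 0.162 (adjusted p 0.230 in edgeR, 0.0378 in DESeq2). miR-411c-5p stood at 496, 594, 604 and 630 CPM in controls and at 279.8, 385, 473 and 474 CPM in LOS, a difference of -0.53 ± 0.166 (adjusted p 0.230 in edgeR, 0.0598 in DESeq2). LOS 3 was the lowest library for both, and without it they differed by -0.44 and -0.39. miR-495-5p stood at 3.83, 4.87, 4.93 and 5.44 CPM in controls and at 6.12, 6.79, 6.88 and 6.98 CPM in LOS, near the lowest levels listed, with a difference of 0.49 ± 0.159 (adjusted p 0.245 in edgeR). miR-485 was the other member with no overlap, at -0.27 ± 0.106 (adjusted p 0.318 in edgeR).

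The partner arms did not share these differences at the same size. miR-299-3p, the major arm of that hairpin, differed by -0.07 in skeletal muscle, and miR-411c-3p by 0.12. In the other tissues miR-299 differed by 0.00 in kidney, -0.01 in liver and -0.18 in tongue, and miR-411c-5p by -0.08 ± 0.152 in kidney, -0.09 ± 0.0517 in liver and -0.09 ± 0.0918 in tongue. Whether the LOS difference itself varied between kidney, liver and skeletal muscle was tested as a tissue by LOS interaction over 24 libraries with the fetus as a block. edgeR called 0 of 55 members, where 1.29% of all 389 tested miRNAs were called, and 3 members had an unadjusted p under 0.05 (18.8% of all tested). The lowest adjusted p in edgeR were 0.0589 for miR-485-3p, 0.0697 for miR-299 and 0.123 for miR-411c-5p. Without LOS 2 the count rose from 0 to 1, miR-299.

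In kidney miR-376a and miR-496 led above 0, at 0.30 ± 0.188 and 0.26 ± 0.162, and miR-409a (-0.53 ± 0.321) and miR-329b-3p (-0.26 ± 0.222) stood with miR-485-3p below it. None passed (adjusted p of 0.456 or more in edgeR). LOS 3 was the lowest library for miR-409a and miR-329b-3p, and without it they differed by -0.28 and -0.07. Without LOS 2 miR-409a differed by -0.91 and miR-496 by 0.14, and without LOS 4 miR-329b-3p differed by -0.40. In tongue the lowest p were those of miR-539 (0.28 ± 0.112) and miR-134-3p (-0.24 ± 0.101), both with an adjusted p of 0.843 in edgeR. miR-539 stood at 5.98 to 9.38 CPM in the 9 controls (median 7.52) and at 7.95 to 11.1 CPM in the 7 LOS libraries (median 8.61), so the groups overlapped. Within sex, edgeR called 0 members between LOS and control among females and 0 among males.

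Sex could be compared in tongue alone, with 7 male and 9 female libraries and LOS status in the fit. edgeR called 0 of 64 members and 0 of all 460 miRNAs, and 7 members had an unadjusted p under 0.05 (13.5% of all tested). miR-1185-3p averaged 70.7 ± 12.5 CPM in males and 49.2 ± 11.9 in females (SD), a log2 difference of 0.52 ± 0.154 (adjusted p 0.313 in edgeR). miR-381 differed by 0.21 ± 0.0869 and miR-541 by 0.42 ± 0.183 in the same direction, and miR-369-3p by -0.22 ± 0.0739 in the other (adjusted p 0.313 to 0.341 in edgeR). No member separated the sexes without overlap, and neither did any other tested miRNA (0%).

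The library LOS 3 was singled out after its values were seen. It had the lowest cluster share in all 4 tissues, with 4.03% in kidney, 15.2% in liver, 18.2% in tongue and 21.6% in skeletal muscle. The next lowest libraries were control 4 at 5.03% in kidney, ART 1 at 15.6% in liver, LOS 7 at 20.5% in tongue and LOS 1 at 25.5% in muscle. The labels use the number LOS 3 in each tissue, taken here as 1 fetus, so the 4 tissues are not independent observations. Without LOS 3 the LOS means were 5.68% in kidney, 16.9% in liver, 22.6% in tongue and 26.6% in skeletal muscle, and the SD of the LOS libraries fell from 0.925 to 0.516 in kidney and from 2.62 to 0.920 in skeletal muscle. With miR-411a or miR-381, the most abundant member of each tissue, left out of the sum, LOS 3 was again lowest in kidney (1.63%), liver (7.23%) and skeletal muscle (13.6%). In liver LOS 3, at 7.2331%, was barely below ART 2 at 7.2418%. In tongue it then stood at 11.532%, with control 4 at 10.55% and control 1 at 11.518% below it.

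Many members shared the low level of LOS 3. It was the lowest of 8 libraries for 45 of 56 members in kidney (80.4%, against 9.74% of the other miRNAs) and for 38 of 64 in skeletal muscle (59.4%, against 13.1%). In liver it was the lowest of 13 for 15 of 67 (22.4%, against 3.23%), and in tongue the lowest of 16 for 19 of 64 (29.7%, against 8.08%). The median log2 difference of LOS 3 from the controls over the members was -0.436 in kidney, -0.0841 in liver, -0.154 in tongue and -0.322 in skeletal muscle, while over miRNAs outside the domain it was 0.0585 for kidney, 0.0771 for liver, 0.0919 for tongue and 0.0498 for muscle. In tongue control 1 had a lower member median than LOS 3, at -0.185, with 0.0537 outside the domain. Of the 54 members listed everywhere, 5 were lowest in LOS 3 in all 4 tissues (miR-369-5p, miR-382, miR-411a-3p, miR-411c-5p and miR-487a), 12 in 3 tissues, 22 in 2, 11 in 1 and 4 in none.

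**Figure D5:**
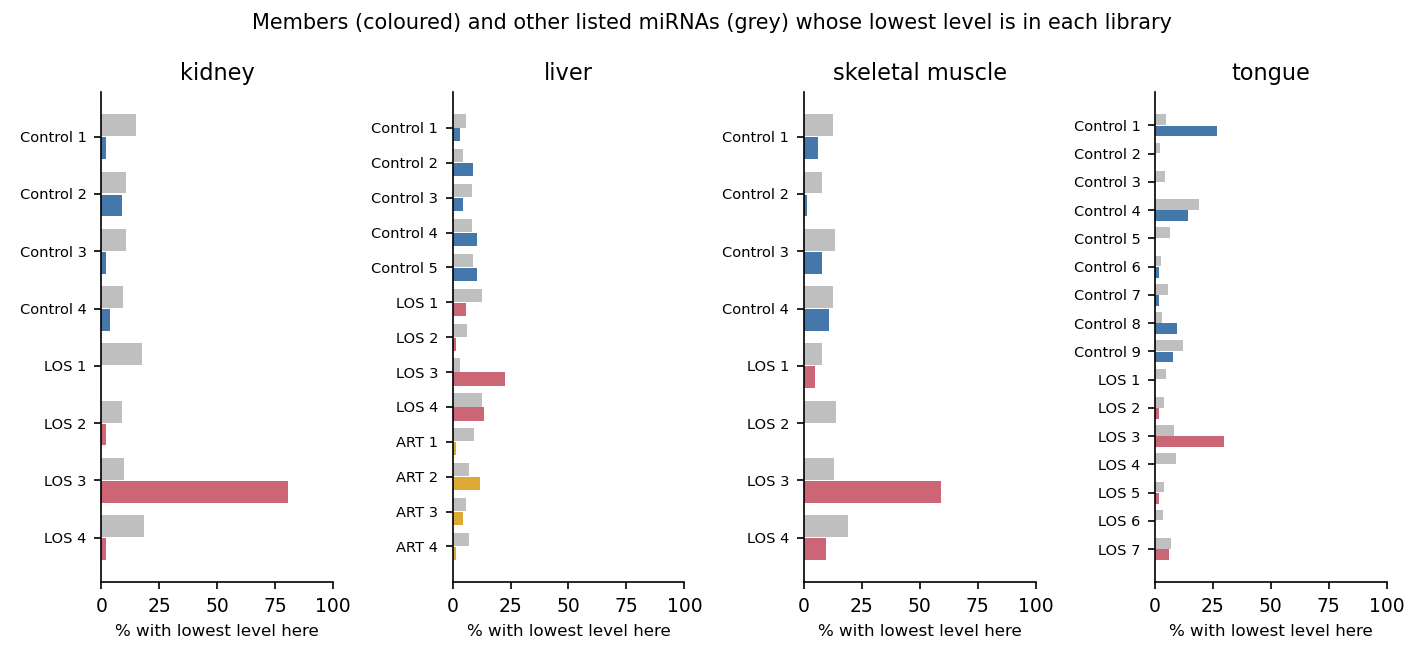
Percentage of members (coloured by group) and of other listed miRNAs (grey) whose lowest level of the tissue lies in each library. LOS 3 holds the lowest level of 80.4% of members in kidney, 59.4% in skeletal muscle, 29.7% in tongue and 22.4% in liver.

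The most abundant members show its size. miR-411a was at 23304 CPM in LOS 3 kidney, where the other 7 libraries ran from 28358 to 37721, and at 65957 in LOS 3 tongue, where the others ran from 77960 to 109200. miR-381 was at 83677 CPM in LOS 3 skeletal muscle, where the others ran from 103200 to 109280. In liver LOS 3 was lowest for miR-411a (80258 CPM) but not for miR-381 (8685 CPM, with LOS 4 at 7870.4). 47 of 56 members in kidney and 43 of 64 in skeletal muscle lay below every control in LOS 3, against 17.1% and 26.7% of the other miRNAs. Many other miRNAs lay above every control in LOS 3: 30% in kidney, 32.5% in liver, 20.5% in tongue and 32.8% in skeletal muscle. In each tissue this was the largest such share of any LOS or ART library, so LOS 3 also departed from the controls outside the cluster.

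Other libraries stood at the high end. LOS 4 was the highest of the kidney libraries for 36 of 56 members (64.3%, against 17.1% of the other miRNAs) and lay above every control for 40 members (23.9% of the others), with a median difference of 0.298. LOS 2 was the highest in skeletal muscle for 28 of 64 (43.8%, against 12.3%), with a median of 0.144. In tongue the extremes were not confined to LOS: control 1 was the lowest for 17 of 64 members (26.6%, against 4.8%) and control 5 the highest for 20 (31.2%, against 8.33%). Without LOS 3 the members' median LOS minus control difference was 0.152 in kidney, 0.0344 in liver, 0.0109 in tongue and 0.0432 in skeletal muscle, and edgeR again called 0 members in each of the 4 tissues.

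Depth and marker levels of LOS 3 are given for comparison. Its listed reads were 8750041 in kidney, 4360687 in liver, 4744968 in skeletal muscle, where it was the shallowest library, and 10950215 in tongue. The 7 mesenchymal markers (miR-143, miR-145, miR-199 and miR-214), all listed, summed to 54540 CPM in its skeletal muscle, the highest of 8, with controls at 42201 to 45421 and LOS at 38586 to 54540. The 3 red cell markers summed to 47751 CPM there, also the highest, with controls at 33202 to 40886. The 2 of 4 neuronal markers listed there summed to 1126.9 CPM, the lowest of 8, with controls at 1538.6 to 1651.9. In its kidney the mesenchymal sum was 49716 CPM, inside the control range of 49689 to 71378. The white blood cell markers, 3 of 4 listed, summed to 332.16 CPM there, the highest of the kidney libraries, with controls at 271.96 to 298.44. The red cell markers summed to 2496.1 CPM, above the controls at 2078.6 to 2450 but below LOS 1 at 3012.3. The remaining marker lists of LOS 3 kidney lay inside the control ranges. In its liver and tongue the mesenchymal sum was 81883 and 73190 CPM, above the control ranges of 59220 to 77664 and 60382 to 68389. The 2 endothelial markers were highest in LOS 3 in liver (16400 CPM, controls 12774 to 14981) and tongue (14012, controls 9653 to 13519). In skeletal muscle they lay above the controls (8588.8 to 9573.4) in LOS 1, LOS 3 and LOS 4, at 9613.7, 10726 and 12795 CPM. LOS 4 muscle, with a cluster share of 27.17%, also had a mesenchymal sum above the controls, at 50806 CPM. These shifts were thus not particular to LOS 3 in muscle. The part of depth and of these markers in the cluster's levels was not tested.

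The other miRNAs of the domain, 14 entries from outside the cluster that include miR-127, miR-136, miR-370, miR-431 to miR-433, miR-493 and miR-665, were read from a list chosen with earlier results known. They took 3.05% ± 0.237 of listed reads in control kidney (SD), 3.19% ± 0.161 in liver, 15.7% ± 0.674 in tongue and 12.7% ± 1.32 in skeletal muscle. Against the cluster they were lowest in liver, where the cluster took 16.7%. All 14 were called lower in kidney than in skeletal muscle by edgeR (41.4% of all tested miRNAs lower and 35.8% higher). In liver against skeletal muscle 10 of 14 were called lower and 3 higher (39.8% and 45.5% of all tested). miR-127, known for targeting RTL1 from the opposite strand, was lower in liver than in kidney by -2.17 ± 0.120, opposite to 49 of the 54 cluster members.

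Between LOS and control these 14 entries held 0 calls by edgeR in each tissue, where 1.24% of all tested miRNAs were called in liver and 0% elsewhere. Their unadjusted p was under 0.05 for 0 in kidney (7.57% of all tested), 2 in liver (14%), 1 in tongue (5.43%) and 1 in skeletal muscle (13.2%). The closest to the threshold was miR-665 in skeletal muscle, at 0.41 ± 0.0764 (adjusted p 0.0526 in edgeR), with 1123 ± 67.1 CPM in control and 1496 ± 59.6 in LOS (SD, n = 4 each) and no overlap. In LOS 3 their median difference from the controls was -0.443 in kidney, -0.106 in liver, -0.175 in tongue and -0.192 in skeletal muscle. In tongue control 1 had a lower median for these entries, at -0.219. In kidney 12 of the 14 had their lowest value in LOS 3, beside 9.74% of all miRNAs outside the cluster. In liver it was 3 of the 14 (beside 3.23%) and in skeletal muscle 6 (beside 13.1%). Both groups of miRNAs of the domain thus had a median below 0 in LOS 3 in each tissue.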

How the data were processed

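Small RNA libraries (TruSeq Small RNA, TRIzol RNA) were aligned with Bowtie to UMD3.1, per the submitters' processing notes and the labels' protocols. cutadapt 1.18 was named for tongue alone. The authors deposited 1 table of raw read counts per miRNA for each tissue, and the sources used here do not name the counting tool or annotation. Precursors and close copies (such as miR-376a to miR-376e and miR-411a to miR-411c) can share reads, so their counts are uncertain where reads were split. Members were matched by name. Members, lists and tests were chosen with earlier results of these data known.

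Counts were tested as deposited with edgeR 4.0.16 (quasi-likelihood test, TMM factors from 0.943 to 1.07 within tables; limma 3.58.1, R 4.3.3), with p-values adjusted by Benjamini-Hochberg over all listed miRNAs and a threshold of 0.05. Standard errors are the log2 difference divided by the square root of F. The 3 liver groups shared 1 fit, and the tongue fit had a term for sex. Tissues were compared over 16 control libraries with TMM factors across tissues and the control number as a block, on the assumption that a number repeated in the labels is 1 fetus across tissues. Over these, samples with the same number had a mean correlation of deviations of 0.13, against -0.0432 for different numbers. Alternatives were DESeq2 1.42.0, other scaling factors, a mean CPM of at least 10, the replicate block and leaving out each replicate. No 2 libraries agreed within sampling noise (lowest chi-square per degree of freedom 23.9).

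Members named with values were the 10 most abundant in controls, those passing or with the lowest p in each comparison, the largest tissue differences in each direction, those in fewer than 4 tables, and the most one-sided, most even and tissue-dependent hairpins. Other domain miRNAs are given as counts with the lowest p named. The partner arms and the values of LOS 3, LOS 2 and LOS 4 given outside these rules were chosen after their values were seen. Mature sequences were not used here, so members were not grouped by seed.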

Additional observations from a re-analysis of the deposited data

Results flagged for a closer look

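In 9 of 174 groups of named members' values, 5.17%, the highest or lowest library lay far from the rest by Dixon's test, where chance gives about 1 in 20. In control liver miR-376e was high in control 5 (353.53 CPM, nearest 320.79), miR-381 was low in control 4 (8302 CPM, nearest 9207.1) and miR-411a was low in control 1 (85763 CPM, nearest 90751). In ART liver miR-485-3p was high in ART 3 (378.34 CPM, nearest 334.84). In control skeletal muscle miR-410 was high in control 1 (31267 CPM, nearest 30414) and miR-411a was low in control 4 (79529 CPM, nearest 90542). In LOS skeletal muscle miR-323b-3p was high in LOS 2 (145.36 CPM, nearest 111.12), and miR-369-3p and miR-381 were low in LOS 3 (1128.7 CPM, nearest 1836.5, and 83677 CPM, nearest 103200).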

How the results depend on the processing

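DESeq2 called 3 members between LOS and control liver, 1 in skeletal muscle, 1 for ART against control and 1 for LOS against ART, where edgeR called 0. The interaction count was 1 with a mean CPM of at least 10, and leaving out 1 replicate gave 0 to 1. In every other alternative of the LOS, ART and sex comparisons the count was 0. Leaving out 1 replicate gave 49 to 51 calls for kidney against skeletal muscle, 25 to 29 for tongue against skeletal muscle and 39 to 44 for tongue against liver. Signs reversed for members near 0 and for some that were called with the TMM factors. Among the latter, miR-411a (-0.70) and miR-409a-3p (-0.58) were called lower in liver than in skeletal muscle. miR-412-5p (-0.42) was called lower in tongue than in kidney. For liver minus skeletal muscle miR-369-3p was -0.03135 with RLE scaling, -0.04652 with factors from outside the domain and -0.03138 with DESeq2. With library totals only miR-411a was 0.04493, miR-409a-3p 0.1669 and miR-487b 0.6961 there, and leaving out 1 replicate gave miR-487b -0.09524 to 0.0322. For tongue minus skeletal muscle, factors from outside the domain gave miR-411a 0.04671, miR-154c 0.2196 and miR-411a-3p 0.1122, and library totals gave 0.1387, 0.3118 and 0.2023. Leaving out 1 replicate gave miR-154c -0.1306 to 0.06164 and miR-380-3p -0.0156 to 0.1422. For tongue minus kidney miR-412-5p was 0.04842 with factors from outside the domain and 0.02028 with library totals (-0.6023 to -0.3706 leaving out 1 replicate). For tongue minus liver, library totals gave miR-409a-3p -0.2871, miR-369-3p -0.2486, miR-487b -0.01724 and miR-299-3p -0.1429. The cause was not tested. Library totals were chosen as an alternative after seeing the data. LOS, ART and control numbers were not paired (correlations from -0.357 to 0.281), and the replicate block gave 0 calls in these 6 comparisons. Without the block the tissue pairs gave 51 calls for kidney against skeletal muscle and the same counts as with it elsewhere.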
